A study of Mus musculus with 4 samples.

Results

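Elovl2 and 9 other genes of fatty acid elongation and desaturation were followed through 4 RNA-seq libraries of neural stem cells of the mouse, which divide and give rise to neurons and glia. The set consists of the elongases Elovl1, Elovl2, Elovl4, Elovl5, Elovl6 and Elovl7 and the desaturases Fads1, Fads2, Fads3 and Scd2, 10 of the 55487 gene IDs measured. They were chosen by symbol, with the low level of Elovl2 in both libraries labelled as Tut1-deleted already known. The differences of these genes between libraries are therefore given as a description and not as a test.

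Neural stem cells came from embryonic neocortex and grew as neurospheres with EGF and bFGF. The control, labelled wild type, was a Tut1f/f culture, in which loxP sites flank a part of Tut1, and received empty lipid nanoparticles (LNP). The other 3 libraries came from cultures given LNP with mRNA for Cre recombinase, which removes DNA between loxP sites, and treated for 3 days. Their genotypes were Tut1f/f (Tut1 KO), Trp53f/f (Trp53 KO) and Tut1f/f;Trp53f/f (double KO). Every library with deleted Tut1 by its label thus received Cre, whereas the control carried the floxed allele without Cre. Each group had 1 library, so no difference below has a replicate check, and none has a p-value. TUT1 is the uridylyltransferase that extends the end of U6 snRNA, a core RNA of the spliceosome, and TRP53 is the p53 transcription factor that arrests or kills damaged cells.

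Fatty acids longer than palmitate are built on the endoplasmic reticulum by a cycle of condensation, reduction, dehydration and a further reduction. An ELOVL elongase performs the condensation and sets which chains enter the cycle. Desaturases insert double bonds: FADS1 and FADS2 act on polyunsaturated chains, and stearoyl-CoA desaturases such as SCD2 make monounsaturated ones. ELOVL5 and ELOVL2 elongate polyunsaturated chains one after the other, ELOVL2 taking the longest of them on the route to docosahexaenoic acid (DHA), a major fatty acid of brain membranes.

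The libraries were first compared with their labels. Tut1 was measured at 12.2 TPM (transcripts per 1000000 transcripts) in the control, 29.8 TPM in the library labelled Tut1 KO, 12.5 TPM in Trp53 KO and 13.7 TPM in double KO. It was thus not lower in either library labelled as Tut1-deleted. A gene-level TPM also counts transcripts that lack only the floxed part, so it checks the deletion in part only. The study measured the deletion on the floxed exon itself and reported it as efficient in Tut1f/f cells given Cre. These gene-level values do not resolve that exon. Directions drawn from these libraries rest on their labels. Trp53 had 119.9, 100.4, 39.7 and 41.9 TPM in the same order and was low in both libraries labelled as Trp53-deleted. The X-linked RNA Xist stood at 188 TPM in Tut1 KO, at 204 TPM in Trp53 KO, and at or below 0.01 TPM in the remaining libraries, while the Y-linked gene Ddx3y showed the opposite order. All 10 neural stem cell markers had at least 10 TPM in at least 1 library, with a summed level of 2802 to 3214 TPM over the libraries. Summed markers of the oligodendrocyte lineage (8 genes, 4 of them at 10 TPM or more) came to 1565 to 1765 TPM. Those of astrocytes (7 genes, 2 of them at 10 TPM or more) came to 252.4 to 285.3 TPM. This sum was mostly Aldoc and Aldh1l1, with Gfap at or below 0.966 TPM. Neuron markers (7 genes, 2 of them at 10 TPM or more) summed to 160.5 to 229.1 TPM. Most of this was Map2 (141 to 208 TPM), with Dcx at 2.42 to 3.13 TPM. Those of microglia, endothelium and fibroblasts stayed between 0.179 and 1.13 TPM, with 3 of 5, 1 of 4 and 2 of 4 genes at 0. In bulk RNA, fewer cells of a type and less RNA per cell cannot be told apart.

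By the ratio of highest to lowest level, Elovl2, the elongase of the late steps toward DHA, had the widest range in the set. It had 27.7 TPM in the control, 0.434 TPM in the library labelled Tut1 KO, 23.4 TPM in Trp53 KO and 2.37 TPM in double KO. Both libraries labelled as Tut1-deleted lay below both others, and the highest level was 63.8 times the lowest. In TPM itself, Scd2 spanned more (47.3 to 720.4 TPM). Elovl2 was at 0.0157 of the control level in the library labelled Tut1 KO and at 0.101 of the Trp53 KO level in double KO. On the log2(TPM + 1) scale, which shrinks differences of low genes, these differences were -4.32 and -2.86. Between the libraries with intact Tut1 by label, Elovl2 differed by -0.23 (Trp53 KO minus control).

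The position of Elovl2 among all genes shows the size of these differences. A gene was compared where it had at least 10 TPM in at least 1 library of a contrast, and was called at a difference of 1 or more. Elovl2 was among the 8 lowest of 9032 differences in Tut1 KO minus control, where 2.61% of genes were called lower and 1.48% higher. It was among the 27 lowest of 8976 differences in double KO minus Trp53 KO, where 1.79% were called lower and 1.41% higher. Both Tut1-labelled libraries lay at least 1 below both others for 21 of 9314 genes (0.225%), Elovl2 included, and at least 1 above both others for 14 genes (0.15%). Since Elovl2 was chosen by this pattern, nothing is read from its place among them.

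Elovl2 was low in 1 Xist-expressing library (Tut1 KO) and in 1 Y-expressing library (double KO), and high in 1 of each kind. It was likewise low with intact and with deleted Trp53 by label. These are the values by which Elovl2 was chosen, with 1 library per group. A part of sex or of the Trp53 label in its level was not tested. The library labelled Tut1 KO also stood apart in base composition: across 9305 genes, the deviation of a gene from its mean over the libraries had a rank correlation of 0.418 with transcript GC content there, against -0.27 to 0.07 in the others. This correlation is across genes of 1 library and carries no p. After correction for GC content and transcript length, the Elovl2 differences of the Tut1 contrasts were -4.09 (Tut1 KO minus control) and -2.95 (double KO minus Trp53 KO).

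Elovl2 (ENSMUSG00000021364) lies on chr13:41182381-41220405 (GRCm38, minus strand), with 2 annotated transcripts, both coding. The longer has 3840 nt in 8 exons. No exon overlaps that of another gene on either strand, and none of the 3791 windows of 50 bases along this transcript occurs in a transcript of another gene. An exact stretch of that length therefore points to Elovl2 alone among the annotated transcripts. The nearest expressed neighbours did not share its pattern. Smim13, 29439 bp away, had 17.6 TPM in the control, 11.3 TPM in Tut1 KO, 13.0 TPM in Trp53 KO and 15.3 TPM in double KO, and Tmem14c, 159795 bp away, had 139, 168, 164 and 167 TPM.

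The promoters of Elovl2 and Elovl5 are shown because these enzymes act in sequence while their transcripts differed in behaviour. Each line holds the 250 bases before the RefSeq start (GRCm38.p6), 5′ to 3′ on the strand of the gene, at chr13:41220404-41220653 (minus) for Elovl2 and chr9:77917115-77917364 (plus) for Elovl5. Capitals mark GGGCGG, the box of Sp1-type factors, or ATTGG, the reverse complement of the NF-Y box CCAAT.
Elovl2: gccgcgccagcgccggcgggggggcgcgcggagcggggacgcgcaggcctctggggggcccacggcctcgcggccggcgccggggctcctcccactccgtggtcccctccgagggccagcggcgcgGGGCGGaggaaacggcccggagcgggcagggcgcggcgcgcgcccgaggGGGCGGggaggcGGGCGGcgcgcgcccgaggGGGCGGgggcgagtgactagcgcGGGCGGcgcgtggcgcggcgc
Elovl5: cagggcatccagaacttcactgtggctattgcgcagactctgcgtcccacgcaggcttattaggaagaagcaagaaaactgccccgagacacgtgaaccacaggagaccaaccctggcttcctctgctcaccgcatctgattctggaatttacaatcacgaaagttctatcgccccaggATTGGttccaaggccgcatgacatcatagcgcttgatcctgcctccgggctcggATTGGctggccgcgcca

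The Elovl2 sequence is almost wholly G and C, and the Elovl5 sequence is not. Over a window that adds the 50 bases after the start, the Elovl2 promoter had 84.67% GC and 56 CpG dinucleotides, above 99.9% and 99.8% of the 27025 RefSeq promoters, whose medians were 52.7% and 7. The Elovl5 window had 57.67% GC and 20 CpG. GGGCGG, searched on both strands, occurred 5 times in the Elovl2 window and was not found in that of Elovl5, and 35.9% of all promoters held it. The Elovl1 window held it 5 times as well, and Elovl1 varied least in the set. CCAAT, searched likewise, was not found in the Elovl2 window, occurred 2 times in that of Elovl5, and was held by 37.9% of promoters. A core of the sterol response element (TCACNCCAC), held by 1.2% of promoters, was in none of the 8 matched members (Elovl1, Elovl2, Elovl4, Elovl5, Elovl6, Elovl7, Fads2 and Fads3). The other 6 matched promoters ranged from 55.67% GC (Elovl6) to 74.0% (Elovl7). These matches describe letters and no binding was measured.

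The other elongases ranged from 1.09-fold (Elovl1) to 1.77-fold (Elovl7) between their lowest and highest libraries. Elovl5, which elongates polyunsaturated chains one step before ELOVL2, was the most abundant, with 161 TPM in the control, 125 TPM in the library labelled Tut1 KO, 169 TPM in Trp53 KO and 193 TPM in double KO. It was lowest in Tut1 KO and highest in double KO, at differences of -0.36 (Tut1 KO minus control) and 0.19 (double KO minus Trp53 KO). Elovl6, which extends palmitate to stearate, had 62.2, 48.6, 66.4 and 65.6 TPM in the same order. Its difference was -0.35 in the first Tut1 contrast and -0.02 in the other, and 4.59% of its 50-base windows also occur in other genes.

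Elovl1, the elongase of saturated and monounsaturated very long chains, varied least, with 46.0 TPM in the control, 46.5 TPM in the library labelled Tut1 KO, 47.0 TPM in Trp53 KO and 49.97 TPM in double KO. The highest of these was 1.09 times the lowest. Elovl4, which makes the longest chains of retina, skin and brain lipids, had 29.0, 22.3, 25.3 and 28.4 TPM in the same order. In the control, Elovl4 and Elovl2 were thus at similar TPM, and in the library labelled Tut1 KO they were not. Elovl7, another elongase of saturated chains, had 2.24, 2.53, 1.43 and 2.09 TPM and stayed under 10 TPM in every library.

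**Figure D1:**
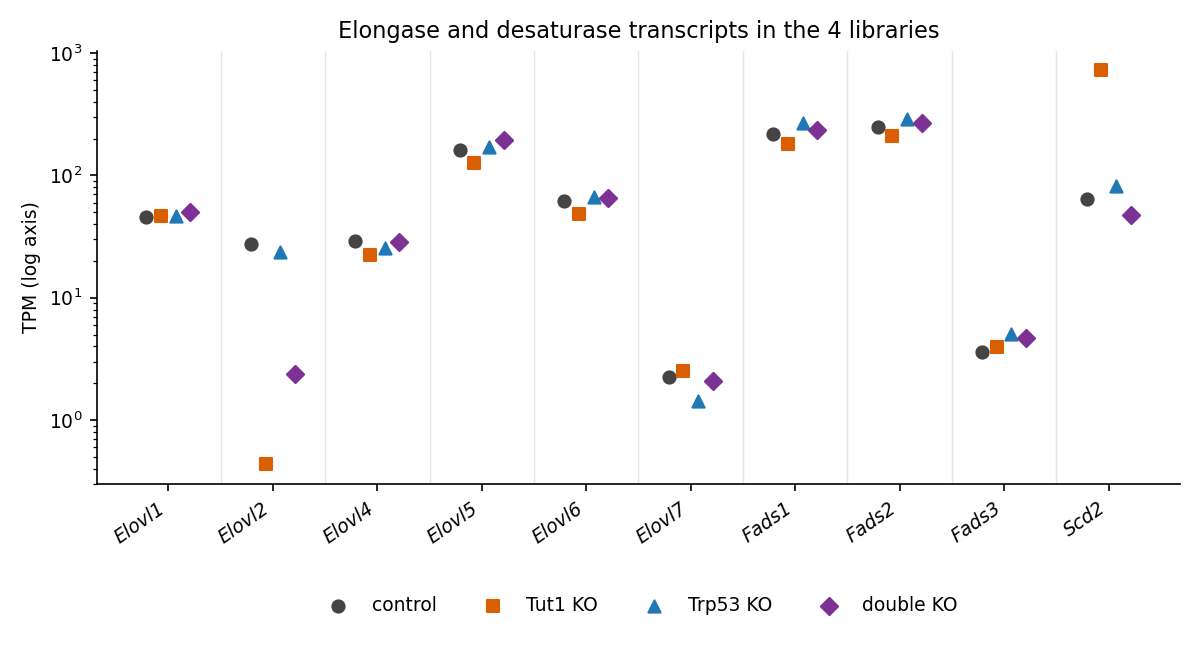
TPM (log axis) of each elongase and desaturase gene in the 4 libraries, 1 point per library with color and shape giving the label. Elovl2 sits at 27.7 and 23.4 TPM in control and Trp53 KO and at 0.434 and 2.37 TPM in Tut1 KO and double KO, and Scd2 sits at 720.4 TPM in Tut1 KO only.

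The makeup of the elongase transcripts followed from these levels. TPM is a level per transcript length, so the 6 elongases can be added within a library. Their sum was 328.6 TPM in the control, 245.8 TPM in the library labelled Tut1 KO, 333.0 TPM in Trp53 KO and 341.9 TPM in double KO. The sum was lowest in Tut1 KO, and without Elovl2 it remained so (245.4 TPM against 300.9, 309.5 and 339.5 TPM). Elovl2 made up 8.43% of the sum in the control and 7.04% in Trp53 KO, against 0.177% in Tut1 KO and 0.693% in double KO. Its level was 17.2% of that of Elovl5 in the control, 0.346% in Tut1 KO, 13.8% in Trp53 KO and 1.22% in double KO. Elovl5 made up 49.1% to 56.6% of the sum and Elovl6 18.9% to 19.95%, so these shares varied much less. Elovl1 ranged from 14.0% in the control to 18.9% in Tut1 KO. The lower Elovl2 share was not accompanied by a call of a higher level of another elongase: the largest difference above 0 among them was 0.12 (Elovl7, under 10 TPM) in the first Tut1 contrast and 0.35 (Elovl7 again) in the other.

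**Figure D2:**
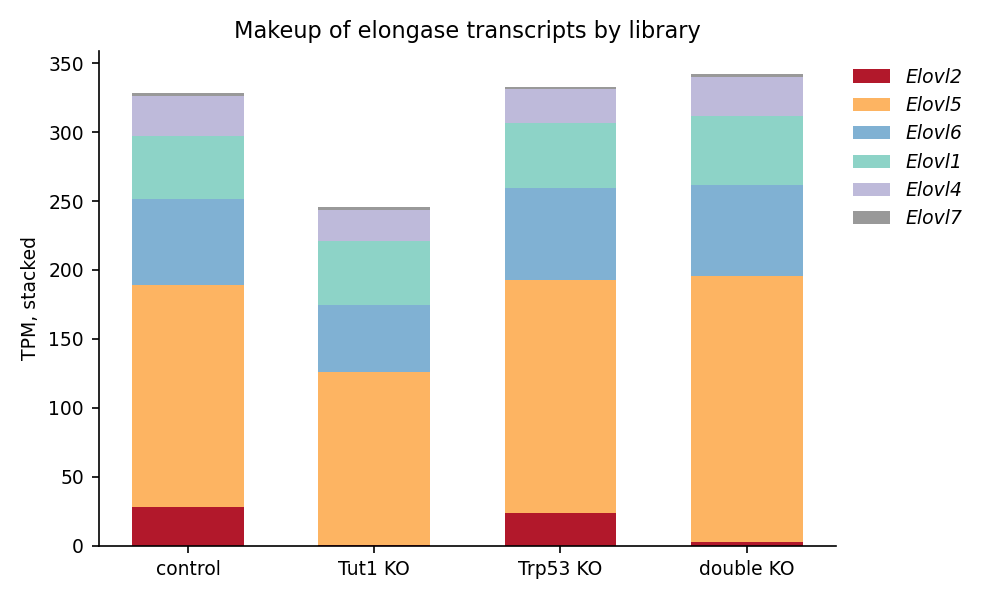
Stacked TPM of the 6 elongases in each library, 1 bar per library and 1 color per gene. The Elovl2 part is 8.43% and 7.04% of the bar in control and Trp53 KO and 0.177% and 0.693% in Tut1 KO and double KO, while Elovl5 is close to or above 49.1% in every bar.

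The desaturases of polyunsaturated chains lie in a cluster with Fads3 on chromosome 19, Fads2 at chr19:10062765-10101746 (GRCm38, minus strand) and Fads1 at chr19:10182888-10196877 (plus strand). Fads2, the first desaturase of this route, had 249.6 TPM in the control, 209 TPM in the library labelled Tut1 KO, 288 TPM in Trp53 KO and 269.8 TPM in double KO. It was the highest gene of the set in every library but Tut1 KO. Fads1, the desaturase that follows it, had 218, 181, 268 and 234 TPM in the same order. The levels of both were lowest in Tut1 KO and highest in Trp53 KO, and the ratio of Fads2 to Fads1 stayed between 1.07 and 1.16. Fads2 differed by -0.25 and -0.09 in the contrasts of the Tut1 label, and Fads1 by -0.27 and -0.19. Fads3, a desaturase of sphingoid bases, had 3.61 to 5.05 TPM, under the minimum in every library, and its transcript shares 5 windows of 50 bases with Fads2.

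Scd2 (ENSMUSG00000025203, chr19:44293674-44306864, plus strand), a stearoyl-CoA desaturase known for its expression in brain, had a different pattern from Elovl2. It had 64.2 TPM in the control, 720.4 TPM in the library labelled Tut1 KO, 81.8 TPM in Trp53 KO and 47.3 TPM in double KO. Only Tut1 KO was high, and double KO was the lowest library. The level in Tut1 KO was 11.2 times that of the control (a difference of 3.47), and 12 of 9032 genes, Scd2 included, were higher by as much or more. In double KO minus Trp53 KO the difference was -0.78, so the contrasts of the Tut1 label went opposite ways for Scd2. In double KO minus Tut1 KO it was -3.90, among the 8 lowest of 8950 genes.

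Scd1, the paralog of Scd2 located 87591 bp away on the same chromosome, did not share the peak. It had 198 TPM in the control, 144 TPM in the library labelled Tut1 KO, 272 TPM in Trp53 KO and 270.4 TPM in double KO, and was lowest where Scd2 was highest. Scd2 made up 83.3% of the Scd1 and Scd2 sum in Tut1 KO, against 24.5% in the control, 23.1% in Trp53 KO and 14.9% in double KO. The paralogs share sequence: 217 of 5406 windows of 50 bases in the longest Scd2 transcript (4.01%) occur in other genes, namely Scd1, Scd3, Scd4, Mir5114 and AC123853.3. Bloc1s2, the expressed neighbour on the other side, had 163 TPM in Tut1 KO against 119 TPM in the control. Scd2 had 720.4 and 81.8 TPM in the Xist-expressing libraries, Tut1 KO and Trp53 KO. Both lay above the Y-expressing control and double KO, at 64.2 and 47.3 TPM. A link of Scd2 to sex was not tested.

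The genes with the profile most like that of Scd2 were examined after its values were seen. Of the 10 nearest among 9313 genes, 9 were predicted genes or pseudogenes, and the other was Gdf1 (0.270 TPM in the control, 21.0 TPM in Tut1 KO, 0.129 TPM in Trp53 KO and 0.157 TPM in double KO). Gdf1 shares exons with 1 other gene on the same strand, and reads could be split between them. In all, 31 genes lay at least 1 above every other library in Tut1 KO, and 19 of them (61.3%) were predicted genes or pseudogenes, against 9.85% of all genes at 10 TPM or more in some library. Genes low elsewhere, such as Gdf1, passed this minimum only through Tut1 KO, which favors them in both counts. No like count was made for another library, and nothing is read from these shares. Scd2 lay 3.12 above the next library, and 6 genes, Scd2 included, lay as far above. Whether the high level of some predicted genes and pseudogenes in the library labelled Tut1 KO bears on that of Scd2 was not tested.

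For Elovl2, likeness was measured as the distance between log2(TPM + 1) profiles centered on their means over the 4 libraries, a measure that uses only these 4 values. The nearest of 9313 genes was Septin2 (ENSMUSG00000026276), a cytoskeletal GTPase, at a distance of 0.983. It had 265 TPM in the control, 21.997 TPM in the library labelled Tut1 KO, 249 TPM in Trp53 KO and 19.7 TPM in double KO. Septin2 shares exons with another gene ID, and reads could be split between them. Aak1, a kinase of clathrin-mediated uptake, followed at 1.53 (13.4, 1.64, 18.4 and 4.403 TPM), then Wdfy1 at 1.81, Utrn (utrophin, a cytoskeletal anchor) at 1.86 and Adgrl1 (a latrophilin receptor) at 1.87. Each of the 5 was lower in both Tut1-labelled libraries than in both others, which the measure of likeness favors. Before the fifth, 6 predicted genes, clones or pseudogenes were left out by rule.

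Over the whole set, Elovl2 and Scd2 were the genes called. In Tut1 KO minus control, where the treatment (Cre or empty LNP) differed too, 8 of the 10 members passed the TPM minimum, Elovl2 was called lower and Scd2 higher, beside 2.61% and 1.48% of all genes. The median over the 10 members was -0.26, and over the 8 that passed -0.31, against -0.09 over all 9032 genes, whose median absolute deviation was 0.23. In double KO minus Trp53 KO, where both cultures received Cre, Elovl2 was the 1 member called of 8, lower like 1.79% of all genes, and the members' median was -0.05 against 0.05 over all genes. In the first of these contrasts Elovl4, Elovl5, Elovl6, Fads1 and Fads2 were all between -0.36 and -0.25, and none was called. Under the correction for GC content and length, the members' medians were -0.10 and -0.11 in the contrasts of the Tut1 label. In the first of them Elovl4 was then at -0.14, Elovl5 at -0.19 and Elovl6 at -0.05, while Fads1 was at -0.22 and Fads2 at -0.25.

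**Figure D3:**
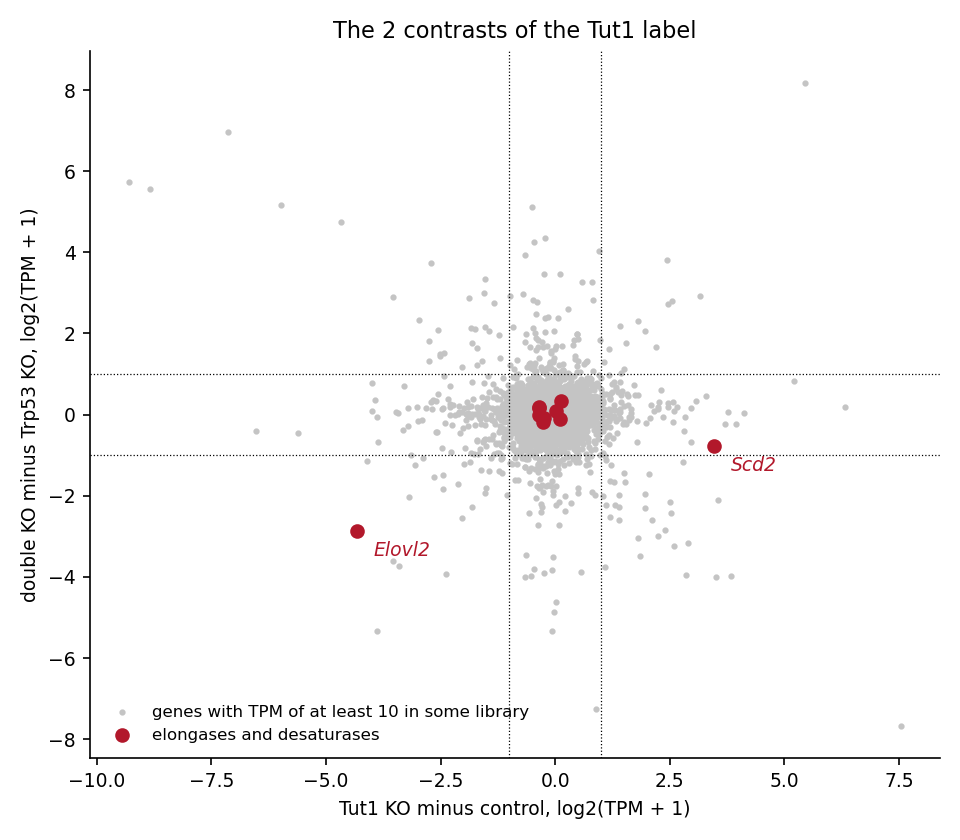
Difference of log2(TPM + 1) in Tut1 KO minus control (horizontal) against double KO minus Trp53 KO (vertical), with the 10 elongases and desaturases in red over 9314 genes with at least 10 TPM in some library in grey, and dotted lines at a difference of 1 either way. Elovl2 lies low on both axes (-4.32, -2.86), Scd2 lies high on the first and below 0 on the second (3.47, -0.78), and the other 8 lie near 0.

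Most members lay above 0 in both contrasts of the Trp53 label, but with 10 genes nothing is read from these counts. In Trp53 KO minus control, 7 of the 10 members were above 0 and none was called, where 1.92% of 9055 genes were called higher and 1.91% lower. Of all these genes 59.93% were below 0, and their median was -0.05. The largest were Elovl7 (-0.42), Fads3 (0.39), Scd2 (0.34) and Fads1 (0.29), of which Elovl7 and Fads3 were under 10 TPM. In double KO minus Tut1 KO, 8 of 10 were above 0, where 39.68% of all genes were below 0. The members' median was 0.35 against 0.09 over all genes. Corrected for GC content and length, this median was 0.15, and that of Trp53 KO minus control was 0.17 (0.08 before). Here Scd2 was called lower and no member higher, where 2.13% of 8950 genes were called higher and 1.77% lower. Elovl5 differed by 0.62. Elovl2 differed by 1.23 (0.434 against 2.37 TPM) but was under the minimum in both libraries, and the difference ran from 0.44 to 2.21 over the alternatives. These contrasts share their libraries with those of the Tut1 label, and the sex-linked transcripts differed within each of them too.

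The rest of the pathway was read from 10 lists with 100 genes, 99 of which had a value. In Tut1 KO minus control, 61 passed the TPM minimum, 1 was called higher (Thrsp) and none lower, with a median of -0.14, where calls over all genes came to 1.48% higher and 2.61% lower. None of the 62 compared in double KO minus Trp53 KO was called, and the median was 0.004, where 1.41% of all genes were called higher and 1.79% lower. With lists of this size, such counts lie near the share over all genes, and nothing is read from them. In Trp53 KO minus control, Thrsp was called higher and Lpcat1 lower among 62 genes, beside 1.92% higher and 1.91% lower over all genes. In double KO minus Tut1 KO, Acsl3 was called higher, at 1.02 close to the threshold, and Lpcat1 lower among 60. Over all genes 2.13% were called higher and 1.77% lower there, and nothing is read from these counts either.

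The enzymes that complete the elongation cycle with the ELOVL proteins varied among themselves. Tecr, the last reductase of the cycle, had 368 TPM in the control, 422 TPM in the library labelled Tut1 KO, 501 TPM in Trp53 KO and 435 TPM in double KO. Hacd1, a dehydratase of the cycle, had 81.0, 100.7, 80.7 and 103.7 TPM and was higher in both Tut1-labelled libraries, by 0.31 and 0.36, short of a call. The related dehydratase Hacd3 had 81.8 to 99.8 TPM. Hsd17b12, the first reductase of the cycle and named after its values were seen, had 71.2, 47.7, 67.1 and 67.5 TPM, and its difference of -0.57 in Tut1 KO minus control was the lowest of the list. Over the 5 partners that passed the minimum, the median was 0.01 in the first Tut1 contrast and 0.09 in the second. Electron donors of the desaturases, among them Cyb5r3, Cyb5b and Cyb5a, had medians of 0.02 and 0.07. Beside Scd1, the other gene of a further desaturase list to pass was Degs1, the dihydroceramide desaturase, with 60.0 to 79.6 TPM.

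Among genes that supply precursors or regulate lipid genes, Acly, Acss2 and Insig1 had their lowest levels in the library labelled Tut1 KO, and none was called. Acly, which makes cytosolic acetyl-CoA, had 188 TPM in the control, 127 TPM in Tut1 KO, 211 TPM in Trp53 KO and 207 TPM in double KO. Acss2, which makes acetyl-CoA from acetate, had 94.8, 59.1, 145 and 106 TPM, and the citrate carrier Slc25a1 had 102, 118, 142 and 110.0 TPM. Of 7 fatty acid synthesis genes, 5 were below 0 in each Tut1 contrast, with medians of -0.31 and -0.03, and all 7 were above 0 in Trp53 KO minus control (median 0.21). Over all genes, 60.73% and 41.27% were below 0 in the Tut1 contrasts and 59.93% in Trp53 KO minus control. With 7 genes in single libraries, nothing is read from these counts. Thrsp, a regulator of lipogenesis, had 4.84 TPM in the control, 17.4 TPM in Tut1 KO, 11.4 TPM in Trp53 KO and 11.7 TPM in double KO. It was lowest in the control, the library without Cre, at 1.66 in Tut1 KO minus control and 1.08 in Trp53 KO minus control. Insig1, a sterol-regulated brake on SREBP processing, had 192, 120.4, 234 and 199 TPM, lowest in Tut1 KO as well. The SREBP genes themselves, Srebf1 (61.5 to 69.6 TPM) and Srebf2 (114 to 138 TPM), varied less.

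Several lists cover genes that activate, shorten or store elongated chains. Acsl3, an acyl-CoA synthetase of lipid droplets, had 103 TPM in the control, 60.4 TPM in the library labelled Tut1 KO and 123 TPM in both Trp53 KO and double KO. The other leading acyl-CoA synthetases, Acsbg1 (165 to 192 TPM) and Slc27a1 (67.0 to 82.3 TPM), varied less. Of peroxisomal chain shortening, by which DHA is finished, Hsd17b4 had 121 to 134 TPM and Abcd3 85.8 to 99.7 TPM, with list medians of -0.21 and 0.06 in the Tut1 contrasts. Among phospholipid acyltransferases, which place fatty acids into membrane lipids, the medians were -0.16 and -0.04, and Agpat1, Agpat3 and Lpcat3 had the highest mean levels over the 4 libraries. Lpcat1, singled out after its values were seen, had 53.2 TPM in the control, 45.3 TPM in Tut1 KO, 17.7 TPM in Trp53 KO and 15.1 TPM in double KO. It thus followed the Trp53 label, with differences of -1.53 and -1.52.

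Of fatty acid binding and uptake genes, 3 of 6 passed the minimum in the contrasts of the Tut1 label, and of ceramide genes 5 of 10. None was called, which these few genes would also give at the share of calls over all genes. Fabp7, the brain fatty acid-binding protein of neural progenitors, had 9441 TPM in the control, 8095 TPM in the library labelled Tut1 KO, 7902 TPM in Trp53 KO and 9394 TPM in double KO. Fabp5, another carrier, had 1707, 1758, 2784 and 1966 TPM, and Mfsd2a, which takes up DHA as a lysolipid, had 24.2, 18.6, 29.8 and 27.4 TPM. Of these carriers, Fabp7 and Mfsd2a were lower in Tut1 KO than in the control, by 0.22 and 0.37 on the log2 scale. Cers2, a ceramide synthase of very long chains, had 115 to 133 TPM, while Cers5 had 39.1 to 43.6 TPM and Sptlc1, a subunit of the first enzyme, 18.8 to 24.8 TPM. Cers3 was higher in both Tut1-labelled libraries (1.11 TPM in the control, 3.01 TPM in Tut1 KO, 1.22 TPM in Trp53 KO and 3.55 TPM in double KO) but was under the minimum everywhere.

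**Figure D4:**
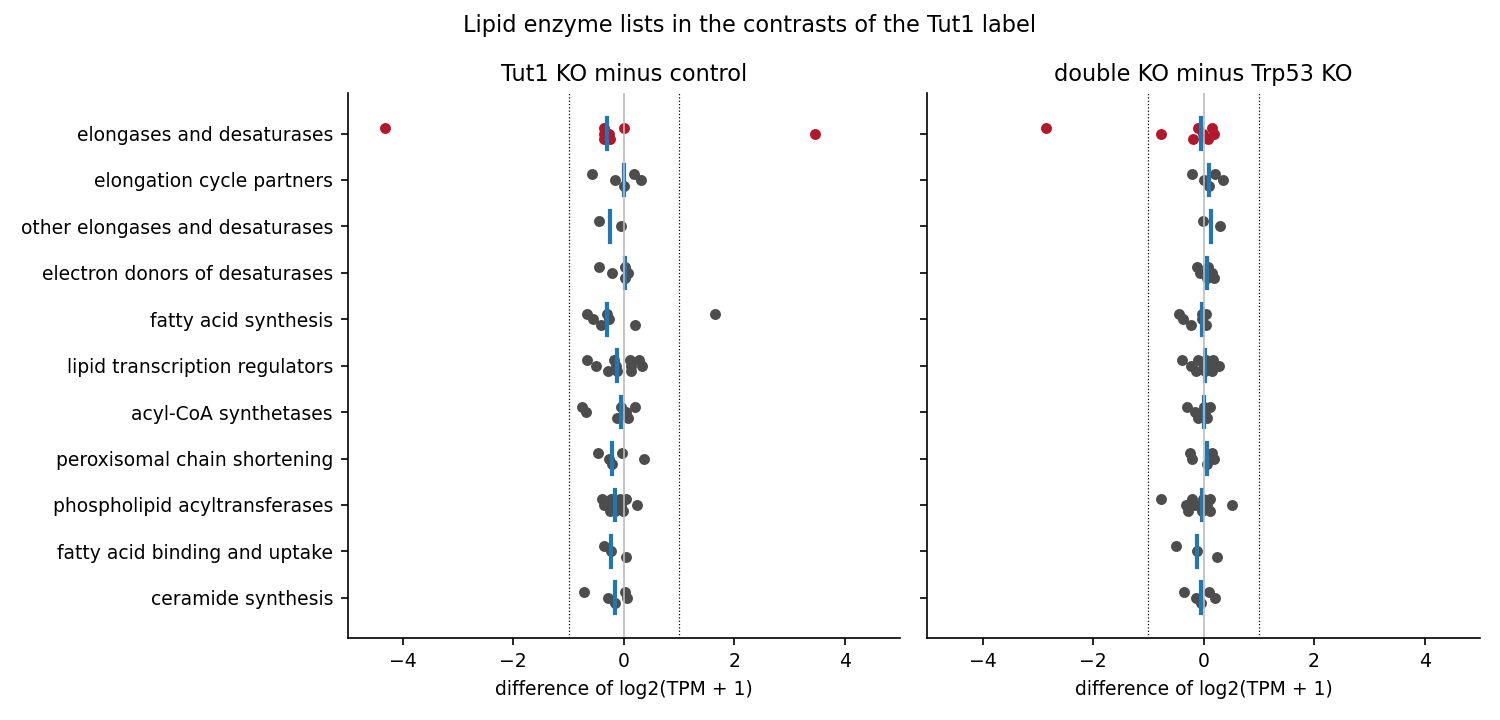
Difference of log2(TPM + 1) for each gene that passed the TPM minimum, in Tut1 KO minus control (left) and double KO minus Trp53 KO (right), with 1 row per list, blue ticks at list medians and dotted lines at a difference of 1 either way. Elovl2 is the 1 gene below -1 in both panels, and Scd2 and Thrsp are above 1 in the left panel.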

How the data were processed

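Expression was measured in 4 RNA-seq libraries. The labels name an Illumina stranded mRNA kit, while the series text names Nanopore long reads, and the processing notes name Trimmomatic, HISAT2, StringTie and mm10 without versions. Gene-level TPM were deposited by the authors, scaled to about 1000000 per library (sums of 999874 to 999892). TPM keep no read depth, so depth is unknown and no counting error can be given.

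Groups came from the labels, with 1 library each. Differences were taken on log2(TPM + 1), and genes with at least 10 TPM in at least 1 library of a contrast were compared, with no test, in Python 3.11.15 (numpy 2.4.6, pandas 2.3.3, matplotlib 3.10.9). The calculation was tested on simulated data. Members and lists were chosen with earlier results of these data known. Named beside the members were Tut1 and Trp53, up to 3 genes of highest mean TPM per list, list genes past a difference of 1 in a Tut1 contrast, and the 5 genes most like Elovl2 without predicted genes or pseudogenes. Genes seen only afterwards are said to be so, as are Xist, Ddx3y and the neighbours, picked for position or sex linkage. Of the IDs, 99.38% matched GENCODE M21 (GRCm38), from which positions and 50-base windows were taken. Promoters came from RefSeq (GRCm38.p6). No protein sequence was used here. Alternatives were pseudocounts of 0.1 and 5, TPM minimums, scalings, a correction for GC content and length, and a 1.5-fold threshold.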

Additional observations from a re-analysis of the deposited data

Results flagged for a closer look

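Scd2 moved in opposite directions in the contrasts of the Tut1 label. It was higher by 3.47 in the library labelled Tut1 KO than in the control (720.4 against 64.2 TPM) and lower by 0.78 in double KO than in Trp53 KO (47.3 against 81.8 TPM), a gap between the contrasts of 4.24 on the log2(TPM + 1) scale. The difference between the contrasts was not tested, since each label had 1 library. Sex-linked transcripts reversed between these contrasts too. Xist was high in the libraries labelled Tut1 KO (188 TPM) and Trp53 KO (204 TPM). Ddx3y was expressed in the control (24.4 TPM) and the double KO (25.7 TPM). The opposite directions of Scd2 therefore cannot be separated from sex here, and a link to sex was not tested.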

How the results depend on the processing

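No called difference of Elovl2 or Scd2 reversed under the alternatives that were run, which did not cover Thrsp, Lpcat1 and Acsl3. With a pseudocount of 0.1, the Elovl2 difference was -5.70 in Tut1 KO minus control. With a pseudocount of 5, it was -2.59 there and -1.95 in double KO minus Trp53 KO. Scd2 stayed between 3.39 and 3.62 in Tut1 KO minus control. With a TPM minimum of 1, or none, 1 member was called higher in double KO minus Tut1 KO (Elovl2), and 27 genes lay higher and 33 lower in both Tut1-labelled libraries, against 14 and 21. At a 1.5-fold threshold these counts were 37 and 69, while 2 members were called lower in double KO minus Trp53 KO (Elovl2 and Scd2) and 1 member higher in double KO minus Tut1 KO (Elovl5). Without the library labelled Tut1 KO, an alternative chosen after seeing the data, the double KO lay higher than both other libraries for 40 genes and lower for 62. Among members, the correction for GC content and length turned 1 sign, that of Elovl1 in Tut1 KO minus control (0.01 before it). No paired analysis was possible because each group had 1 library. The precision of low levels such as those of Elovl2 in the Tut1-labelled libraries cannot be stated from TPM.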
